A study of Mus musculus with 18 samples.

Results

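Conventional CD4 single-positive (CD4 SP) thymocytes are T cells that have lost CD8 and kept CD4. Here they were chosen by surface antibody counts and by a low RNA count of 5 genes that respond to strong receptor signals. Each antibody count was scaled to the median antibody total of all cells and put on a log2(1 + value) scale. A cell was kept with a CD4 value above 6.3 and a CD8A value of at most 6.1, and with at most 1 UMI (unique molecular identifier, 1 captured RNA molecule) summed over Nr4a1, Nr4a3, Gadd45b, Tnfrsf9 and Tnfrsf4. The rule kept 272 of 1331 cells. Because it used the CD4 and CD8A antibodies and those 5 genes, their values are described here and not tested. Just inside the CD4 threshold lay 12 cells (within 0.3 of it), and just outside it 7. The CD8A threshold had 11 cells just inside and 14 just outside. Of the members, 246 had a sum of 0 for the 5 genes and 26 had a sum of 1, and 13 cells that passed both antibody thresholds were left out with a sum of 2.

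The cells came from mixed bone marrow chimeras in which 30% of the marrow carried a transgenic T cell receptor and CD45.1.2, and 70% was wild-type competitor marrow. OT2 is a receptor known to bind an ovalbumin peptide on MHC class II, and OT1 is known to bind an ovalbumin peptide on MHC class I. NegSelected hosts carried RIPmOVA, a transgene in which the Ins2 promoter drives a TFRC/OVA fusion. PosSelected hosts were wild-type C57BL6/Ncr mice. NoSelection hosts (B6.Ly5.1/Ncr) lacked MHC class II (OT2) or b2m (OT1), and what these hosts can still select was not measured. For the OT2 NoSelection host a comment in the labels names b2m instead, and the treatment label was used. All mice were labelled female, 14 weeks old and 6 weeks past transplantation, and there was 1 mouse per receptor and host, so differences between single hosts had no replicate check. Thymocytes were sorted as CD44lo CD45.1.2+ Va2+ Vb5+ cells, and RNA and surface antibody tags were counted in the same cells with the 10x Genomics 5' kit.

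CD4 SP thymocytes arise after CD4+CD8+ cells receive a survival signal from MHC class II, and the factor ThPOK, encoded by Zbtb7b, fixes the CD4 fate. The young cells move to the medulla by CCR7, lose CD24 and CD69, and gain the IL-7 receptor and KLF2, which switches on the exit receptor S1PR1. Interferon response and MHC class I genes are also known to rise late in this maturation.

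Antibodies were read through DNA tags, and the tags that set the gate and the later split by CD24 are shown because every class in the text rests on them. Each is 15 bases long, and the CD4 tag differs from the CD8A tag and from the CD24 tag at 12 positions.
CD4: aacaagacccttgag
CD8A: tacccgtaatagcgt
CD24: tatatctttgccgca

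CD4 SP cells made up most cells of 1 mouse only, the OT2 PosSelected mouse. They were 23 of 177 cells (12.99%, exact 95% interval 8.42 to 18.9%) in OT2 NegSelected, 182 of 254 (71.7%, 65.7 to 77.1%) in OT2 PosSelected and 7 of 108 (6.48%, 2.65 to 12.9%) in OT2 NoSelection. In the OT1 mice they were 14 of 204 cells (6.86%, 3.80 to 11.2%) in NegSelected, 35 of 282 (12.4%, 8.80 to 16.8%) in PosSelected and 11 of 306 (3.59%, 1.81 to 6.34%) in NoSelection. The OT2 PosSelected interval lay above the intervals of the other 5 mice. Among those 5, the OT1 NoSelection interval lay below those of OT2 NegSelected and OT1 PosSelected, and the other pairs overlapped. The OT2 PosSelected mouse gave 66.9% of all members. Intervals here and below cover counting error only. RNA UMIs summed over the members came to 81825, 541358 and 31191 in the OT2 NegSelected, PosSelected and NoSelection mice, and to 55641, 138017 and 55070 in the OT1 mice in the same order of hosts. The OT2 NoSelection mouse had fewer than 10 members and entered no test.

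**Figure D1:**
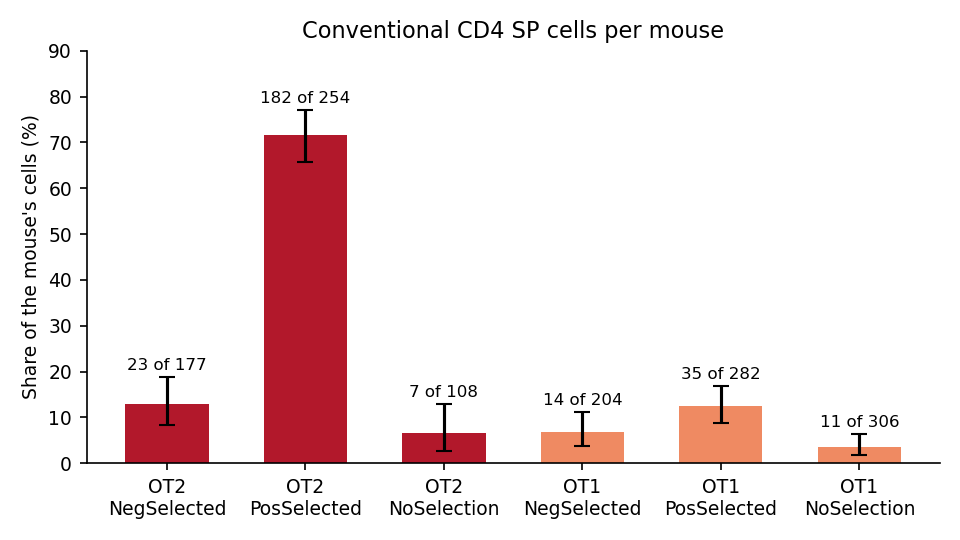
Share of each mouse's cells that met the CD4 SP rule, in percent, with exact 95% binomial intervals and cell counts above the bars. The OT2 PosSelected bar stands at 71.7%, and the other 5 mice lie between 3.59% and 12.99%.

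The 5 marker genes were chosen with earlier results of these data known, so their levels describe the label and do not check it. Against CD4+CD8A+ cells 0 of the 5 passed the count filter. Against CD4-CD8A+ cells 1 was tested and 0 were called. Zbtb7b, the gene of the CD4 fate factor, was at 85.5, 73.9 and 160 CPM (UMIs scaled to counts per 1e6) in CD4 SP cells of the OT2 NegSelected, PosSelected and NoSelection mice, and at 53.9, 7.25 and 36.3 CPM in those of the OT1 mice in the same order. In CD4-CD8A+ cells it had 0 UMIs in all 5 mice with at least 10 such cells. The level was low everywhere, with 58 UMIs in all, and a UMI was seen in 18.4% of CD4 SP cells, against 3.45% of CD4+CD8A+ cells and 0% of CD4-CD8A+ cells, at median depths of 3116, 2292.5 and 4982.5 UMIs per cell. Cd40lg, the ligand through which helper T cells act on CD40, was at 134, 146 and 192 CPM in the OT2 mice and at 162, 29.0 and 54.5 CPM in the OT1 mice. Slfn1, a schlafen gene of quiescent T cells, was highest in OT2 PosSelected at 458 CPM, against 71.9 to 200 CPM in the other 5 mice. Rflnb, which encodes refilin B, ran from 36.3 to 171 CPM, and Gpr183, an oxysterol receptor that guides migration, from 53.9 to 97.9 CPM. Summed over the 5 markers, CD4 SP cells had 723 CPM over all mice, against 108 CPM in CD4+CD8A+ and 153 CPM in CD4-CD8A+ cells. By mouse the CD4 SP sum was 672, 909 and 705 CPM in OT2 and 449, 268 and 399 CPM in OT1, in the order above. The OT2 PosSelected mouse gave 182 of 272 CD4 SP, 29 of 174 CD4+CD8A+ and 13 of 260 CD4-CD8A+ cells. Pooled values thus mix mouse with class.

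**Figure D2:**
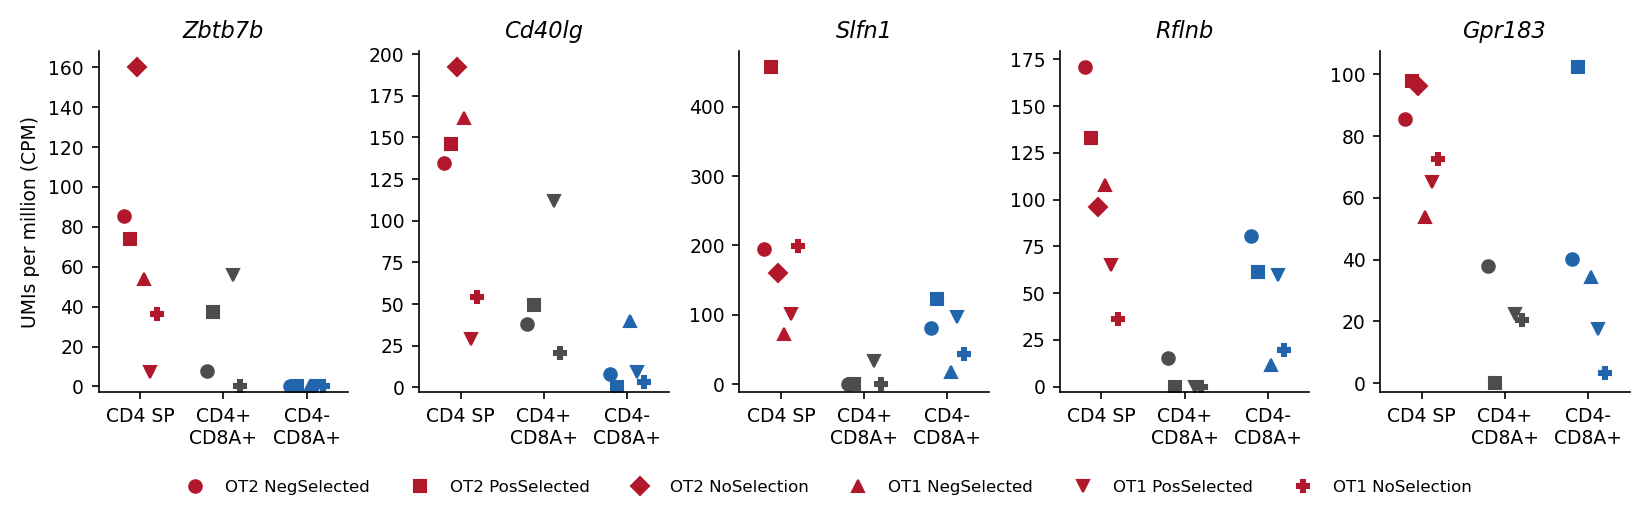
CPM of the 5 marker genes, 1 symbol per mouse, in CD4 SP cells (red), CD4+CD8A+ cells (grey) and CD4-CD8A+ cells (blue; comparators only for the mice tested). Zbtb7b reaches 160 CPM in CD4 SP cells and lies at 0 in the blue class; the OT1 PosSelected symbol is the lowest red one for Zbtb7b and Cd40lg.

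The OT1 PosSelected members went in part against the label. Their CD4 SP markers summed to 268 CPM, the lowest of all mice, but above the 108 CPM of all CD4+CD8A+ and 153 CPM of all CD4-CD8A+ cells. They held 1 Zbtb7b UMI, while Trdc, the constant gene of the delta receptor chain, stood at 275 CPM, the CD8 and cytotoxic granule genes Cd8a and Nkg7 at 101 and 109 CPM, and 15 of the 35 cells had a UMI of a gamma delta marker (Sox13, Trdc, Trgc1 or Cd163l1). In the other mice such a UMI was seen in 0 of 23, 8 of 182 and 1 of 7 OT2 cells (NegSelected, PosSelected, NoSelection), and in 2 of 14 OT1 NegSelected and 1 of 11 OT1 NoSelection cells. The part of these cells in the results below was not tested, and counts are given without that mouse and without cells that held such a UMI. OT1 NegSelected members shared some of these signs, with Cd8a at 89.9 CPM, Nkg7 at 71.9 CPM, CD8 SP markers (Cd8a, Cd8b1, Runx3 and Nkg7) at 270 CPM, against 449 CPM in OT1 PosSelected and 73.3 to 192 CPM in the other 4 mice, and 7349 antibody CPM of CD8A, against 7252 in OT1 PosSelected and 3216 to 4397 in the other 4 mice. In all CD4-CD8A+ cells the CD8 SP markers were at 1718 CPM. Of the 5 preselection markers, Rag1 and Ptcra had 0 UMIs in all 272 members, while Rag2, Dntt and Arpp21 were seen. Rag1 and Ptcra act in receptor gene assembly and in the pre-T cell receptor. The 5 summed to 47.6 CPM in members, against 1786 CPM in all CD4+CD8A+ cells. Their UMIs lay in 1, 20 and 1 OT2 cells and in 3, 8 and 1 OT1 cells (NegSelected, PosSelected, NoSelection). The erythroid markers Hbb-bs, Hba-a1 and Alas2 were at 0. Treg markers (Foxp3, Il2ra, Ctla4, Ikzf2) were at 501, 33.2 and 64.1 CPM in members of the OT2 NegSelected, PosSelected and NoSelection mice and at 341, 86.9 and 472 CPM in those of the OT1 mice in the same order, against 271 CPM in all CD4+CD8A+ and 272 CPM in all CD4-CD8A+ cells. In OT1 NoSelection they exceeded the CD4 SP markers, which were at 399 CPM. The Treg UMIs lay in 6 of 23, 13 of 182 and 1 of 7 OT2 cells and in 4 of 14, 8 of 35 and 2 of 11 OT1 cells, and their part in the results was not tested.

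CD4 SP cells were set against CD4+CD8A+ cells of the same mice to ask what RNA changes go with the loss of CD8. Genes of maturation, tissue exit and antigen presentation were higher in CD4 SP cells, while genes of the immature receptor-signalled state were lower. Counts were summed per mouse and class in the 4 mice with at least 10 cells of each (OT2 NegSelected and PosSelected, OT1 PosSelected and NoSelection), and tested with edgeR's quasi-likelihood test with the mouse as a block. Of 1412 genes tested, 79 rose and 58 fell at a Benjamini-Hochberg adjusted p under 0.05, which is 5.59% and 4.11% of the genes (9.7% in all), and 350 had an unadjusted p under 0.05. Values below follow the order of mice just named. Fewer cells of a kind in a class and less RNA per cell cannot be told apart in such sums.

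Igfbp4, which encodes a binding protein of insulin-like growth factors, stood furthest apart. It was at 1259, 201, 138 and 563 CPM in CD4 SP cells of the 4 mice, against 0, 0, 0 and 20.4 CPM in CD4+CD8A+ cells. The second class held 1 UMI in all, so that the pooled ratio was 113 with a counting interval of 20.05 to 4468 (edgeR adjusted p = 1.04e-07). The gene was uneven among CD4 SP cells, with UMIs in 10 of 23 OT2 NegSelected cells and in 31 of 182 OT2 PosSelected cells.

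Ccr7, the receptor that draws thymocytes to the medulla, was at 501, 573, 348 and 690 CPM in CD4 SP cells, against 15.2, 161, 112 and 81.7 CPM in CD4+CD8A+ cells, and the classes did not overlap. Its log2 fold was 2.66 (SE 0.35, edgeR adjusted p = 0.00016). Klf2, the driver of S1pr1, was at 477, 611, 246 and 508 CPM in CD4 SP cells, against 7.59, 161, 179 and 81.7 CPM in CD4+CD8A+ cells. It rose by 2.25 on the log2 scale (SE 0.42, edgeR adjusted p = 0.00276). Il7r, the IL-7 receptor alpha chain, was at 697, 266, 384 and 218 CPM in CD4 SP cells, against 121, 173, 168 and 20.4 CPM in CD4+CD8A+ cells, without overlap. It rose by 1.73 (SE 0.33, edgeR adjusted p = 0.00276) on the same scale. Of the 20 genes listed for SP maturation and exit, 12 were tested, 8 rose, among them Ccr7, Cd52, Gimap3, Il7r, Klf2, Ms4a4b and Slfn2, and 0 fell, with a median log2 fold change of 1.32 against -0.04 over all genes tested. Gimap3 and Ms4a4b were higher in 3 of the 4 mice and lower in OT1 PosSelected.

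The MHC class I heavy chain gene H2-K1 was at 1687, 2235, 891 and 2161 CPM in CD4 SP cells, against 114, 346, 335 and 184 CPM in CD4+CD8A+ cells. All 4 CD4 SP values were above all 4 others. H2-K1 rose by 2.91 on the log2 scale (SE 0.33, edgeR adjusted p = 4.03e-05), H2-D1, a second heavy chain gene, by 1.92 (SE 0.26, edgeR adjusted p = 0.00016), and B2m, the shared light chain, by 1.29 (SE 0.23, edgeR adjusted p = 0.00184). Of 10 MHC class I genes listed, 7 were tested and these 3 rose. H2 genes are near-identical in places, so reads can be split between them. Of the 14 interferon response genes 5 were tested and 2 rose, among them Ifi27l2a, by 2.70 (SE 0.40, edgeR adjusted p = 0.00036). Other rises were those of Inpp4b, an inositol phosphatase gene (1.66), B4galnt1, which makes gangliosides (1.55), and Cd82, a tetraspanin gene (1.54). Ribosomal protein genes, a group chosen after the values were seen, had log2 fold changes above 0 for all 78 tested (median 0.76), and 33 rose.

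Among the genes that fell, Ccr9, a chemokine receptor of cortical thymocytes, was at 318, 216, 877 and 109 CPM in CD4 SP cells, against 1737, 1769, 1263 and 920 CPM in CD4+CD8A+ cells. It fell by 2.01 on the log2 scale (SE 0.33, edgeR adjusted p = 0.000888), and the OT1 PosSelected cells were closest together. Sox4, a factor of immature T cells, fell by 1.58 (SE 0.22, edgeR adjusted p = 0.000274), and Sla, an adaptor that lowers receptor levels at the surface, by 1.81 (SE 0.27, edgeR adjusted p = 0.000411). Of 10 genes of the signalled intermediate stage 5 were tested and 3 fell, Ccr9, Cd27 and Cd5, the last a brake on receptor signals. Of 8 immature SP genes 5 were tested and 3 fell, Ccr9, Satb1 and Sox4. Among 12 genes of the T cell receptor complex and its close signalling, all of them tested, only Themis fell, by 1.38 (SE 0.27, edgeR adjusted p = 0.0033). Of 13 T cell identity factors 11 were tested, and Satb1, Tcf12 and Tcf7 fell. The remaining falls named by the rule were those of Gm4258 (-2.25), the endosomal exchanger gene Slc9a9 (-1.83), Edem1 of glycoprotein disposal (-1.82), the p53 target Trp53inp1 (-1.82), Lpar6, a receptor for a lysophospholipid (-1.67), Lmo4 (-1.60) and Marcks (-1.56), all as log2 fold changes. Stmn1, a tubulin-binding gene of dividing cells and the 1 tested gene of the 10 for the cell cycle, fell by 1.22 (SE 0.28, edgeR adjusted p = 0.0111). Ighm, 1 of 6 B cell genes and the only one tested, also fell, by 1.17 (SE 0.29, edgeR adjusted p = 0.016).

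The comparison classes were not alike in every mouse. The 8 listed preselection genes summed to 2579, 1212, 179 and 1369 CPM in the CD4+CD8A+ cells of the 4 mice, against 12.2, 62.8, 130 and 36.3 CPM in their CD4 SP cells, and the OT1 PosSelected comparator is the one with few of them. Their part in the result was not tested. The count of calls was 76 without the OT2 NegSelected mouse, 67 without OT2 PosSelected, 286 without OT1 PosSelected and 45 without OT1 NoSelection, and 147 without cells that held a gamma delta marker UMI. Among the genes named by size of change, Cd82 was not called without OT2 NegSelected (1.32), Klf2 (2.15) and Trp53inp1 (-1.80) were not called without OT1 NoSelection, and Marcks was not called without OT2 PosSelected (-1.24) or without OT1 NoSelection (-1.52). Of the list genes, calls were lost in 2 of the 4 fits that leave out a mouse for Satb1 (-0.999 and -0.74), Tcf12 (-0.97 and -0.85), Slfn2 (0.81 and 1.13) and Ighm (-0.81 and -1.02), and in 1 for Cd5, without OT2 PosSelected (-0.62). Without OT1 NoSelection the calls of Cd27 (-0.95), Cd52 (1.22), Gimap3 (2.23), Ms4a4b (1.95), Themis (-1.28), Tcf7 (-0.65) and Stmn1 (-1.02) were also lost. Igfbp4, H2-K1, H2-D1, Ifi27l2a, Ccr7, Il7r, Inpp4b, Ccr9, Sox4 and Sla were called in each of the 4 fits.

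Without the mouse as a block, 83 genes were called in place of 137, and all 83 were among the 137. The lists for CD4 commitment (1 gene tested), agonist signal (2), Treg (1) and survival and death (2) had no call in this comparison, those for migration and cytokine receptors held only Ccr7, Ccr9 and Il7r, and no gene was tested of the CD8 lineage, preselection, gamma delta, innate, myeloid, erythroid and thymic epithelium lists.

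Surface antibodies are described without a test, and did not all follow the RNA. CD3, part of the receptor complex, was at 13275, 15606, 11401 and 13501 antibody CPM in CD4 SP cells of the same 4 mice, against 5262, 5755, 9171 and 6109 antibody CPM in CD4+CD8A+ cells. CD3 was higher in CD4 SP cells of all 4 mice, and the gap was narrowest in OT1 PosSelected, while 0 of the 12 receptor complex genes rose in RNA. CD5 was at 107564, 118380, 123681 and 143874 antibody CPM in CD4 SP cells, against 90763, 87864, 140586 and 97612 antibody CPM in CD4+CD8A+ cells. The CD5 antibody was thus higher in 3 of the 4 mice and lower in OT1 PosSelected, whereas Cd5 RNA fell by 1.05 on the log2 scale (SE 0.26, edgeR adjusted p = 0.0159). CD24 was at 5298, 5347, 7493 and 3400 antibody CPM in CD4 SP cells, against 11592, 11870, 7772 and 6109 antibody CPM in CD4+CD8A+ cells.

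CD4 SP cells were next set against CD4-CD8A+ cells of the same mice, a class set by the gate, whose CD8 fate was not tested. Over all mice that class held 305 CPM of the 5 preselection markers and 380 CPM of the gamma delta markers. Members held 47.6 and 73.1 CPM. Fewer genes separated these classes. Of 2186 genes tested in 5 mice (all but OT2 NoSelection), 16 rose and 17 fell in CD4 SP cells, which is 0.732% and 0.778% of the genes (1.51% in all), and 275 had an unadjusted p under 0.05. Mice are given as OT2 NegSelected and PosSelected, then OT1 NegSelected, PosSelected and NoSelection.

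Izumo1r, which encodes folate receptor 4 (FR4), was at 147, 172, 288, 109 and 254 CPM in CD4 SP cells, against 24.1, 41.0, 114, 34.0 and 46.2 CPM in CD4-CD8A+ cells. It was higher in all 5 mice and rose by 1.93 on the log2 scale (SE 0.28, edgeR adjusted p = 0.00376). The FR4 antibody was at 6730, 8803, 7823, 5998 and 21878 antibody CPM in CD4 SP cells, against 2177, 1761, 2134, 2514 and 3055 antibody CPM in CD4-CD8A+ cells. RNA and protein thus differed in the same direction in each mouse. Tesc, for the calcium-binding protein tescalcin, rose by 1.91 (SE 0.31, edgeR adjusted p = 0.00542). Bach2, a repressor that restrains effector genes, rose by 1.39 (SE 0.23, edgeR adjusted p = 0.00657), and Slfn2, a schlafen gene needed for quiescence, by 1.29 (SE 0.20, edgeR adjusted p = 0.00542). The other rises were those of Inpp4b (1.82), Ctss for cathepsin S (1.79), Samhd1, a nucleotide hydrolase gene (1.75), Ccr7 (1.53), the guanylate-binding gene Gbp9 (1.52) and the tetraspanin gene Tspan32 (1.27). Of the 20 maturation genes 16 were tested, and Ccr7, Cd52 (0.92) and Slfn2 rose.

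Nkg7, a gene of cytotoxic granules, was at 0, 1.85, 71.9, 109 and 0 CPM in CD4 SP cells, against 354, 328, 348, 408 and 224 CPM in CD4-CD8A+ cells. It fell by 3.46 on the log2 scale (SE 0.54, edgeR adjusted p = 0.00542), with log2 fold changes of -5.18 to -2.67 in the fits without 1 mouse. The log2 fold change was -7.39 in OT2 and -2.26 in OT1 mice, a difference of -5.12 (SE 1.00) that missed the threshold (edgeR adjusted p = 0.108), and the OT2 value rests on CD4 SP levels at or near 0. Nkg7 was the only tested gene of the 8 listed for the CD8 lineage apart from the coreceptor genes, which the gate bears on. Anxa2, an annexin gene, was at 0, 12.9, 18.0, 43.5 and 0 CPM in CD4 SP cells, against 96.5, 246, 223, 131 and 402 CPM in CD4-CD8A+ cells, and fell by 3.54 (SE 0.49, edgeR adjusted p = 0.00376). Dntt, which encodes the enzyme that adds bases at receptor gene joints, fell by 2.29 (SE 0.49, edgeR adjusted p = 0.0292). H2az1, a histone variant gene (-1.37), Lmnb1 for lamin B1 (-1.24) and Anp32e (-0.92) fell as well, and of the 10 cell cycle genes 2 were tested and 0 called. The CD4-CD8A+ class held more cell cycle RNA in the OT1 mice: the 10 listed genes summed to 220, 247, 234, 464 and 291 CPM in CD4 SP cells, against 217, 205, 2633, 1775 and 2646 CPM in CD4-CD8A+ cells. The 8 gamma delta genes summed to 71.9, 341 and 182 CPM in CD4 SP cells of the OT1 NegSelected, PosSelected and NoSelection mice, against 497, 389 and 643 CPM in their CD4-CD8A+ cells, and the counting intervals overlapped in OT1 PosSelected (250 to 453 and 349 to 434). The part of these levels in the result was not tested. Dnajc15 (-1.54), Epsti1 (-1.35), Txn1 for thioredoxin (-1.27) and Thy1 (-1.07) also fell.

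**Figure D3:**
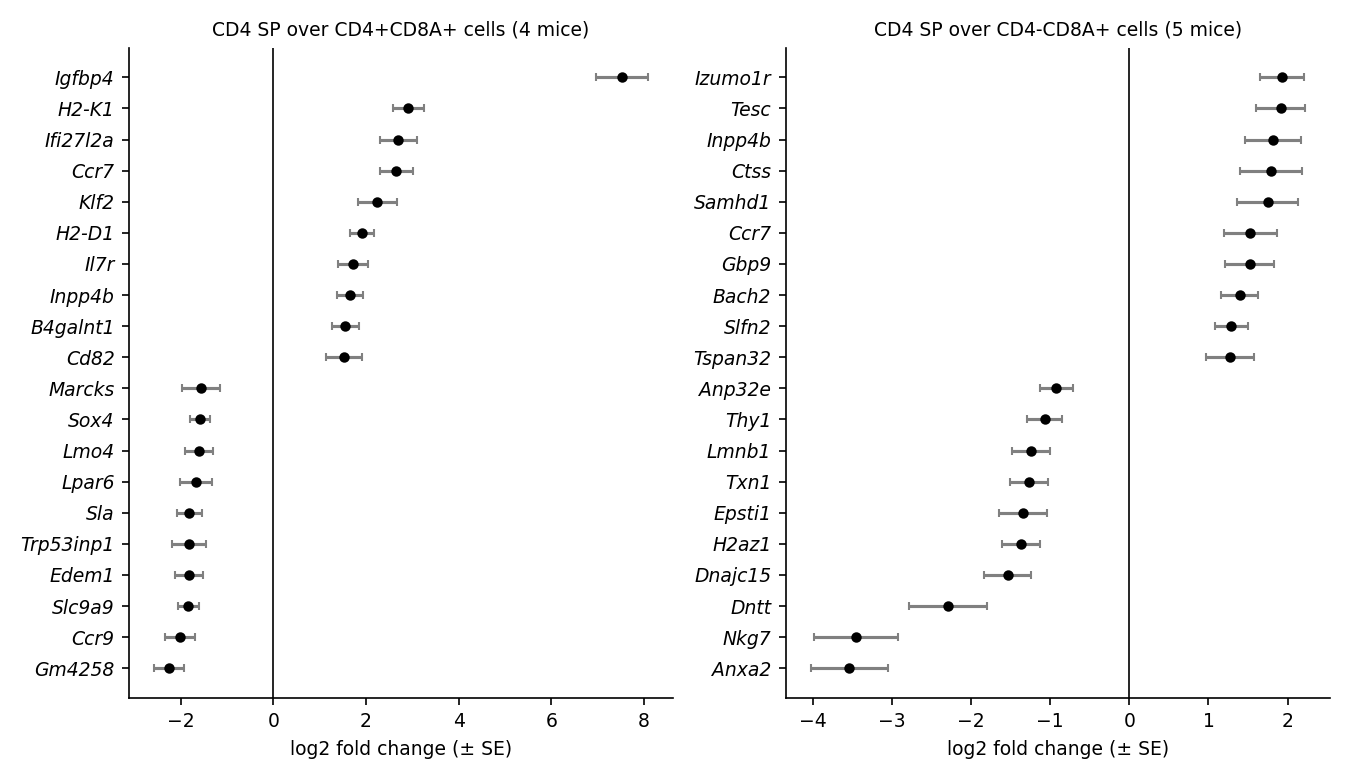
Log2 fold changes with standard errors of the genes named by size of change, for CD4 SP over CD4+CD8A+ cells in 4 mice (left) and over CD4-CD8A+ cells in 5 mice (right). Igfbp4 lies at 7.52 on the left, a value that depends on 1 UMI in the other class, and Anxa2 and Nkg7 lie lowest on the right at -3.54 and -3.46.

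In the CD4-CD8A+ comparison the count of calls was 8 without OT1 NegSelected, 14 without OT1 PosSelected, 8 without OT1 NoSelection and 20 without cells that held a gamma delta marker UMI, against 33 with all. Izumo1r, Tesc, Bach2, Slfn2, Anxa2 and Nkg7 were called in each fit that left out 1 mouse and tested them. The remaining named genes each lost their call without at least 1 mouse, with log2 fold changes between 1.05 and 1.88 for the rises Inpp4b, Ctss, Samhd1, Ccr7, Gbp9 and Tspan32 in those fits, and between -2.40 and -0.83 for the falls Dntt, Dnajc15, H2az1, Epsti1, Txn1, Lmnb1, Thy1 and Anp32e. Anp32e lost its call in all 5 fits, and Ctss, Tspan32, Epsti1 and Thy1 in 4 of the 5. Cd52 lost its call in 4 of the 5 fits (0.76 to 1.06).

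Within CD4 SP cells, OT2 mice (NegSelected and PosSelected) were compared with OT1 mice (NegSelected, PosSelected and NoSelection). Of 1498 genes tested, 9 rose and 3 fell in OT2, which is 0.601% and 0.2% (0.801% in all), and 157 had an unadjusted p under 0.05. OT2 and OT1 mice share the NegSelected and PosSelected hosts but not NoSelection, and the fit had no host term. With one, 50 genes were called (39 higher, 11 lower), all 12 among them. All 3 that fell and 2 of the 9 that rose were receptor chain genes. Trbv12-2 was at 159 and 780 CPM in OT2 mice, against 0, 7.25 and 36.3 CPM in OT1 mice, and Trbv12-1 at 0 and 18.5 CPM in OT2 mice, against 2714, 3210 and 1035 CPM in OT1 mice. The segments are near-identical, so reads may be split between them, and the split was not tested. Trac, the alpha constant gene, was at 1577 and 1709 CPM in OT2 mice, against 485, 246 and 200 CPM in OT1 mice.

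Rnf43, a ubiquitin ligase gene that damps Wnt receptors, was at 477 and 357 CPM in OT2 CD4 SP cells, against 0, 0 and 18.2 CPM in OT1 CD4 SP cells. The OT1 mice held 1 UMI in all, so that the pooled ratio was 92.6 with a counting interval of 16.5 to 3673 (edgeR adjusted p = 3.39e-06). CD4+CD8A+ cells had it too, in 47 of 60 OT2 NegSelected and 24 of 29 OT2 PosSelected cells, against 1 of 20 OT1 PosSelected cells. Xist, the RNA of the silent X chromosome, was at 257 and 320 CPM in OT2, against 0, 14.5 and 36.3 CPM in OT1 (log2 fold change 4.19, edgeR adjusted p = 5.87e-05), and was not called without OT2 PosSelected (3.93). All mice were labelled female. Slfn1 was the 1 marker gene called, at 196 and 458 CPM in OT2 against 71.9, 101 and 200 CPM in OT1, higher by 1.67 on the log2 scale (SE 0.38) at an edgeR adjusted p = 0.0479, with overlapping receptors. Pde3b, a phosphodiesterase gene (2.01), Dusp2, a phosphatase gene induced by signalling (1.61), the interferon-inducible Ifi209 (1.68) and 4930523C07Rik (1.73) also rose. Apart from Slfn1, no list gene was called. The lists held 8 tested interferon genes with a median log2 fold change of 0.67 and 18 maturation genes with 0.68, against -0.01 over all genes. Calls came to 34 without OT2 NegSelected and 4 without OT1 PosSelected, and to 7 without cells that held a gamma delta marker UMI. Rnf43 was called in each fit that left out a mouse. Pde3b (1.27 to 1.67), Dusp2 (1.06 to 1.71), Ifi209 (1.48 to 2.05), 4930523C07Rik (1.295 to 2.33) and Slfn1 (0.77 to 2.06) lost the call without at least 3 of the 5 mice each. Ifi209 lost it in all 5 fits, and Dusp2, 4930523C07Rik and Slfn1 in 4.

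On the surface, 0 of 104 antibodies tested were called between OT2 and OT1 (0%, edgeR), with 5 at an unadjusted p under 0.05, and DESeq2 called 3. The lowest p was that of ICAM1, an adhesion molecule, at 649 and 628 antibody CPM in OT2 mice, against 1275, 1583 and 1263 in OT1 mice (log2 fold change -1.10, SE 0.16, edgeR adjusted p = 0.103). CD9, a tetraspanin, was at 3176 and 5170 antibody CPM in OT2 mice, against 1695, 1653 and 2064 in OT1 mice (1.23, SE 0.22, edgeR adjusted p = 0.125). CD69, a mark of recent signalling, was at 3563 and 4171 antibody CPM in OT2 mice, against 5600, 5960 and 6435 in OT1 mice (-0.61, SE 0.14, edgeR adjusted p = 0.274). The receptors did not overlap for these 3. CD28, CD86 and HVEM followed, with log2 fold changes of -0.46, 0.75 and 0.63.

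CD4 SP cells were next compared by the CD24 antibody, which is known to fall as these cells mature. Members were split at the median CD24 value in each of 3 mice with at least 10 cells on each side: 11 and 12 cells (CD24-high and CD24-low) in OT2 NegSelected, 91 and 91 in OT2 PosSelected, and 17 and 18 in OT1 PosSelected. Ccr9, Itm2a and Satb1 of the immature SP list were higher in CD24-high cells, and Il7r, Klf2 and Igfbp4 were higher in CD24-low cells. Of 1053 genes tested, 11 rose and 8 fell in CD24-high cells, which is 1.04% and 0.76% (1.8% in all), and 154 had an unadjusted p under 0.05. The p-values of this fit rest mostly on a spread pooled over genes. They measure little of each gene's own spread among the 3 mice.

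Ccr9 was at 654, 339 and 1089 CPM in CD24-high cells of OT2 NegSelected, OT2 PosSelected and OT1 PosSelected, against 44.3, 100 and 676 CPM in CD24-low cells. It rose by 1.42 on the log2 scale (SE 0.24, edgeR adjusted p = 1.7e-06). Tox, a factor needed for the CD4 lineage, was at 1418, 663 and 1074 CPM in CD24-high cells, against 332, 258 and 746 CPM in CD24-low cells, and rose by 1.19 (SE 0.21, edgeR adjusted p = 9.48e-06). Slc9a9 rose by 1.56 (SE 0.25, edgeR adjusted p = 4.36e-07). Of 8 immature SP genes 5 were tested, and Ccr9, Itm2a (0.99), a gene of positive selection, and Satb1 (1.01), a chromatin organiser, rose. B630019A10Rik (1.16), Zbtb20 (0.98) and Tcf7 (0.73) rose as well. The other 3 rises, named after their values were seen, were of genes also called between OT2 and OT1 mice. Rnf43 was at 927, 419 and 0 CPM in CD24-high cells, against 111, 297 and 0 CPM in CD24-low cells (log2 fold change 0.92, edgeR adjusted p = 0.0174). Trac was at 2971, 1864 and 224 CPM in CD24-high cells, against 443, 1562 and 268 CPM in CD24-low cells (0.82, edgeR adjusted p = 0.0242), and Trbc1 at 409, 240 and 836 CPM, against 0, 158 and 535 CPM (0.86, edgeR adjusted p = 0.0252). The gaps for Rnf43 and Trac were widest in OT2 NegSelected, and the part of receptor RNA in the split was not tested.

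Igfbp4 was at 627, 107 and 14.9 CPM in CD24-high cells, against 1772, 290 and 254 CPM in CD24-low cells, and fell by 1.70 on the log2 scale (SE 0.26, edgeR adjusted p = 1.28e-07). Il7r was at 382, 187 and 284 CPM in CD24-high cells, against 953, 340 and 479 CPM in CD24-low cells, a fall of 0.99 (SE 0.24, edgeR adjusted p = 0.00619). Klf2 fell by 0.89 (SE 0.24, edgeR adjusted p = 0.0134). Of the 20 maturation genes 16 were tested, and Il7r and Klf2 were the ones called. Tagln2 (-1.25), Gm2682 (-1.01), Ms4a6b (-0.85) and the ribosomal genes Rps6 (-0.87) and Rps19 (-0.79) fell too. Of the 77 ribosomal protein genes tested, 0 had a log2 fold change above 0 (median -0.42), and 2 were called. Slfn1 did not pass the test (-0.43, edgeR adjusted p = 0.44), and Zbtb7b, Cd40lg, Rflnb and Gpr183 did not pass the count filter.

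**Figure D4:**
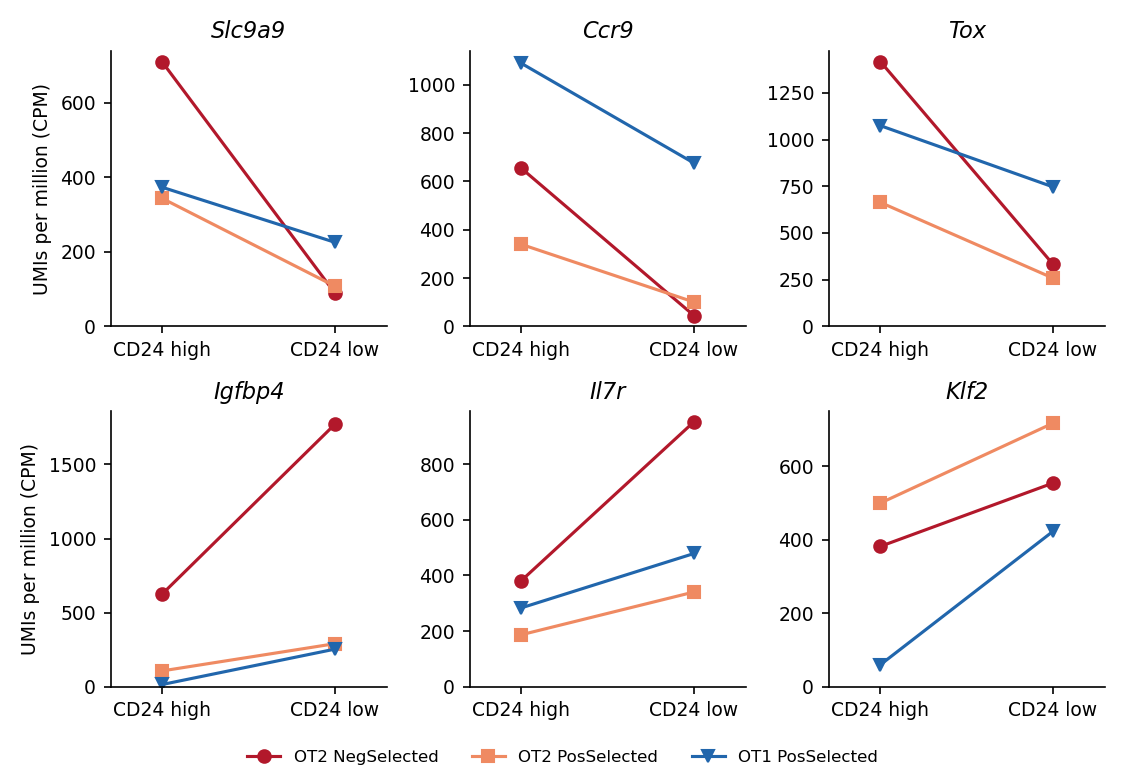
CPM of 6 genes in CD24-high (left) and CD24-low (right) CD4 SP cells, 1 line per mouse. Slc9a9, Ccr9 and Tox slope down to the right in all 3 mice, and Igfbp4, Il7r and Klf2 slope up.

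FR4 was higher in CD24-low cells. Its median log2 antibody value was 3.26, 4.62 and 3.43 in CD24-high cells, against 4.46, 5.42 and 3.98 in CD24-low cells of the 3 mice. Over the 182 OT2 PosSelected cells CD24 and FR4 had a Spearman rho of -0.26, and both share the antibody total by which they were scaled. In the OT2 NegSelected mouse CD44, used low for the sort, had a median of 3.68 in CD24-high cells and 6.43 in CD24-low cells, while the medians in the other mice lay between 3.43 and 3.92. The CD24 split gave 0 calls without the mouse as a block, 0 with a CD8A threshold of 5.8, 0 with a sum of 0 for the 5 genes, and 2 with DESeq2. It gave 4 calls without the OT1 PosSelected mouse, whose members went in part against the label. Slc9a9, Ccr9 and Igfbp4 were called in each of the 3 fits that left out a mouse. The other 13 named genes lost the call in at least 1 of them, among them Tox without OT2 PosSelected (1.21), Klf2 without OT1 PosSelected (-0.67), and Il7r without each of the 3 in turn (-1.16 to -0.94). B630019A10Rik, Tcf7 and Rps19 also lost it without each of the 3 in turn.

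By summed CPM, interferon response genes were most abundant in CD4 SP cells of the OT2 PosSelected mouse. The 14 genes summed to 1699 CPM (counting interval 1428 to 2006) in OT2 NegSelected and 3395 CPM (3242 to 3554) in OT2 PosSelected, and to 988, 1464 and 2415 CPM in OT1 NegSelected, PosSelected and NoSelection. These are single mice, and no test was made. In cells thinned to 1500 UMIs each, 3 or more list UMIs were held by 30.4% of OT2 NegSelected cells, 55.2% of OT2 PosSelected, 23.1% of OT1 NegSelected, 27.3% of OT1 PosSelected and 54.5% of OT1 NoSelection cells, and 0, 10, 1, 2 and 0 cells were too shallow. The unthinned shares were 60.9, 75.3, 57.1, 51.4 and 90.9%. Before thinning, the median cell held 4, 6, 3, 3 and 11 list UMIs in the same order, so OT1 NoSelection was highest by that measure. In OT2 PosSelected, the 18 of 182 cells with the most list UMIs held 39.0% of them. In CD4+CD8A+ cells the thinned shares were 2.08% in OT2 NegSelected, 11.1% in OT2 PosSelected, 23.5% in OT1 PosSelected and 16.7% in OT1 NoSelection. For CD4-CD8A+ cells they were 17.6 and 7.69% in OT2 NegSelected and PosSelected. In OT1 NegSelected, PosSelected and NoSelection CD4-CD8A+ cells they were 12.5, 39.8 and 11.9%. The OT1 PosSelected share was thus higher in CD4-CD8A+ than in CD4 SP cells, against the direction in the other mice. Ifit3, an antiviral gene, had 59 UMIs in 18 of the 182 OT2 PosSelected CD4 SP cells.

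**Figure D5:**
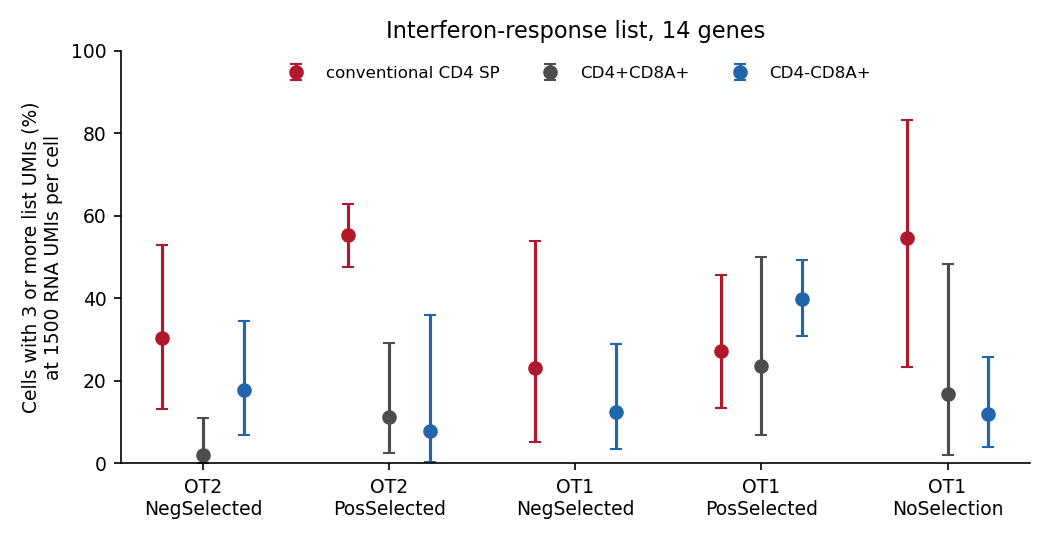
Share of cells, in percent, with 3 or more UMIs of the 14 interferon response genes after thinning to 1500 RNA UMIs per cell, with exact 95% intervals, in CD4 SP cells (red), CD4+CD8A+ cells (grey) and CD4-CD8A+ cells (blue). OT2 PosSelected CD4 SP cells stand at 55.2% and OT2 NegSelected ones at 30.4%.

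Promoters are shown for 2 interferon genes, Ifit1 and Ifit3, with 101 of 117 and 59 of 60 of the members' UMIs in OT2 PosSelected cells, and for B2m, which rose against CD4+CD8A+ cells. They run from 250 bases before to 50 after the gene start (RefSeq, GRCm38.p6, shown on the gene's strand), and capitals mark matches to GAAANNGAAA or its reverse TTTCNNTTTC, the pattern to which interferon-response factors are known to bind. The spans are chr19:34640639-34640938 (plus strand) for Ifit1, chr19:34583279-34583578 (plus strand) for Ifit3 and chr2:122147437-122147736 (plus strand) for B2m.
Ifit1: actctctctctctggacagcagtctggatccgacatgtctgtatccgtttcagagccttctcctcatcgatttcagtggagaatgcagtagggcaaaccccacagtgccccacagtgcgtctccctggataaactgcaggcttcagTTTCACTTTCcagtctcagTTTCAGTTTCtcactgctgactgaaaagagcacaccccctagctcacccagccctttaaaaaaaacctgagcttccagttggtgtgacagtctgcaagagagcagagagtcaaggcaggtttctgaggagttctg
Ifit3: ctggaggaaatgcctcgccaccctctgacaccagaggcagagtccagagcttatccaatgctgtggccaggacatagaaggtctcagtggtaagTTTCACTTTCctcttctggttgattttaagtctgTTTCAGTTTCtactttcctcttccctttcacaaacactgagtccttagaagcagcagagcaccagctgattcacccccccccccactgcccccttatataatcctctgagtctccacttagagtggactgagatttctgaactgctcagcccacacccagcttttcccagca
B2m: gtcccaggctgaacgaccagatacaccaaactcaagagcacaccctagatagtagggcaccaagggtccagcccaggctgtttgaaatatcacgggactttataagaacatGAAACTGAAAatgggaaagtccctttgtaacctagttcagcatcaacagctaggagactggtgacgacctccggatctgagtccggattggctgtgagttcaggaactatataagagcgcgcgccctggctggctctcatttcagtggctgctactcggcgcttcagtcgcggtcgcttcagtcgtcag
Of the interferon genes 9 of 14 had a promoter in the table, and 5 of those 9 held the pattern (Isg15, Ifit1, Ifit3, Bst2 and Ifi203). It was in 1 of 8 MHC class I promoters, 0 of 16 maturation promoters and 3.99% of 27025 promoters in all. Searched on both strands, overlapping matches counted, it is a description and not a site.

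Between hosts of 1 receptor each value is that of 1 mouse, so ratios carry counting intervals only and no test. The OT2 members also stood apart on the surface. The median log2 antibody value was 4.66 in NegSelected and 6.79 in PosSelected cells for TCRVA2, and 2.91 and 5.26 for TCRVB5.1-TCRVB5.2, and CD44 was at 15229 antibody CPM in NegSelected and 3456 in PosSelected cells. The part of these gaps in the ratios was not tested. In OT2 mice, 4 of 2906 genes were higher and 5 lower in NegSelected than in PosSelected CD4 SP cells by more than 2-fold beyond counting error. Igfbp4 was at 1259 CPM in NegSelected and 201 CPM in PosSelected cells, a ratio of 6.25 (4.73 to 8.26). Bcl2, the survival gene, was at 428 and 94.2 CPM in the same order (4.54, 2.87 to 7.12). Ikzf2, which encodes Helios, was at 367 CPM in NegSelected and 18.5 CPM in PosSelected cells (19.8, 9.44 to 45.5), and Hdac9, a histone deacetylase gene, at 379 and 3.69 CPM (103, 26.1 to 884). These last 2 rested on single cells: 1 of the 23 NegSelected cells held 25 of the 30 Ikzf2 UMIs, and 1 held 29 of the 31 Hdac9 UMIs. Without the 6 cells that held a Treg marker UMI (Ikzf2 is 1 of the 4), Hdac9 had 0 UMIs in the 17 cells left, while Igfbp4 stood at 1567 CPM in NegSelected and 213 CPM in PosSelected cells and Bcl2 at 261 and 99.4 CPM. In NegSelected cells the interferon-inducible Ifit1 had 24.4 CPM, against 187 CPM in PosSelected cells (ratio 0.131, 0.0157 to 0.486). Iigp1, also induced by interferon, had 0 UMIs in NegSelected cells, against 96.0 CPM in PosSelected cells, as did Ets2, against 116 CPM. Pole4 had 12.2 and 151 CPM, and Gm20400 had 110 and 480 CPM, in NegSelected and PosSelected cells.

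In OT1 mice, NegSelected against PosSelected cells gave 1 gene higher and 1 lower of 880. The mitochondrial gene mt-Nd5 was at 629 CPM in NegSelected and 181 CPM in PosSelected cells, and Zbp1, an interferon-inducible sensor, had 0 UMIs in NegSelected cells, against 159 CPM in PosSelected cells. PosSelected against NoSelection cells gave 5 higher and 8 lower of 936. Satb1 was at 2927 CPM in PosSelected and 436 CPM in NoSelection cells (6.72), Ccr9 at 877 and 109 CPM (8.05) and Tcf7 at 1609 and 527 CPM (3.05). Igfbp4 was at 138 CPM in PosSelected and 563 CPM in NoSelection cells, and Ikzf2 at 79.7 and 472 CPM, where 2 of the 11 NoSelection cells held all 26 Ikzf2 UMIs. NegSelected against NoSelection cells gave 6 higher and 5 lower of 380, again with Satb1 (2714 against 436 CPM) and Ccr9 (575 against 109 CPM) higher in NegSelected and with Id3, an inhibitor of E proteins, lower (53.9 against 853 CPM). Without cells that held a Treg marker UMI, Id3 stood at 49.3 CPM in NegSelected and 294 CPM in NoSelection cells, with 10 UMIs in the 9 NoSelection cells left, against 47 UMIs in all 11. The OT1 NoSelection cells were 11 in number.

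Cells with the same antibody gate but a sum of 2 or more for the 5 signal genes numbered 38 and are set beside the members as a description, since the rule used that contrast. Of these, 16 came from the OT2 NegSelected mouse. There, members had 5298 antibody CPM of CD24 and 8743 of CD127, the IL-7 receptor, against 13719 and 26414 antibody CPM in the signal-high cells. Members over all mice had 64.2 CPM of Zbtb7b, 330 CPM of Slfn1 and 117 CPM of Rflnb, against 20.1, 93.7 and 20.1 CPM in the signal-high cells, and the 2 classes draw on the mice in different shares.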

How the data were processed

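The authors deposited raw UMI counts per gene and cell and raw UMI counts per antibody and cell, with the hashtag of each cell, which names its mouse. The submitters' processing notes name Cell Ranger (8.0.1), Seurat and mm10. How hashtags were called and how cells and doublets were filtered is not given in the sources used here. Receptor sequencing libraries were left out. No doublet caller was run, and an alternative dropped cells above the 95th percentile of RNA UMIs (12147).

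Each mouse had 525843 to 1867488 RNA UMIs over its cells, and 0 barcodes were shared. Counts were summed per mouse and class (at least 10 cells) and tested with edgeR 4.0.16 in R 4.3.3 (quasi-likelihood, TMM, filterByExpr, two-sided, Benjamini-Hochberg adjusted p under 0.05 as the call). Within-mouse comparisons had the mouse as a block, because both classes come from the same animal. OT2 against OT1 had receptor as the only term, so hosts are the spread within a receptor. In RNA, the p-values of that fit rest mostly on a spread pooled over genes. They measure little of each gene's own spread among the 5 mice. The SE is the log2 fold change over the square root of F. Cd4, Cd8a, Cd8b1, the 5 rule genes and, for the split by CD24, Cd24a were not tested, nor were the CD4, CD8A and receptor antibodies. CPM relate to the summed class. Intervals are exact, at 95%. The fits were tested on simulated data.

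The members, the 23 lists (190 genes) and the tests were chosen with earlier results of these data known. Besides the 5 markers, the text names for each test at most 10 called genes per direction, taken by size of change (mean 50 CPM or more, same sign in every mouse or, between receptors, no overlap; no receptor segments); with fewer than 5 calls it names the 6 smallest p. For hosts it names at most 5 per direction with 20 or more UMIs and an interval past 2-fold. List members are named where their list held a call. Nab2, the ribosomal genes and receptor segments were named after their values were seen. Promoters are from RefSeq (GRCm38.p6). Alternatives were RLE factors, no filter, DESeq2 1.42.0, each mouse left out, at least 20 cells, other gates, no replicate block and a host term; leaving out cells with gamma delta or Treg marker UMIs was chosen after seeing the data. Some items that were measured are not reported here.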

Additional observations from a re-analysis of the deposited data

Results flagged for a closer look

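For 2 of 1412 genes the difference between CD4 SP and CD4+CD8A+ cells itself differed between receptors (edgeR, receptor by class term, 107 at an unadjusted p under 0.05). Nab2, a corepressor of EGR factors, was at 183 and 150 CPM in OT2 CD4 SP cells (NegSelected, PosSelected), against 98.6 and 61.9 CPM in OT2 CD4+CD8A+ cells. In OT1 it was at 29.0 and 18.2 CPM in CD4 SP cells (PosSelected, NoSelection), against 291 and 225 CPM in CD4+CD8A+ cells. Its log2 fold change was 1.22 in OT2 and -3.31 in OT1, a difference of 4.54 (SE 0.68, edgeR adjusted p = 0.0097). The OT1 value and the difference rest on few Nab2 UMIs in OT1 CD4 SP cells. Those cells held 138017 and 55070 RNA UMIs in all (PosSelected, NoSelection). Ms4a4b, a membrane protein gene of mature T cells with close relatives in its family, was at 684 and 1127 CPM in OT2 CD4 SP cells, against 121 and 99.0 CPM in OT2 CD4+CD8A+ cells, and at 290 and 781 CPM in OT1 CD4 SP cells, against 335 and 490 CPM in OT1 CD4+CD8A+ cells. The log2 fold change was 3.12 in OT2 and 0.30 in OT1, a difference of 2.82 (SE 0.51, adjusted p = 0.0351). Each receptor had 2 mice of different hosts. The part of the OT1 PosSelected cells, whose markers went in part against the label, was not tested.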

How the results depend on the processing

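Against 137 calls, CD4 SP over CD4+CD8A+ cells gave 260 with no filter, 67 with DESeq2, 45 with at least 20 cells, 83 with no replicate block, 71 with a rule sum of 0, and 45 to 286 without 1 mouse. Against 33, CD4-CD8A+ cells gave 201 with no filter (42 higher, 159 lower), 5 with at least 20 cells, 12 without the deepest cells, 57 at a CD4 threshold of 6.6, 6 with a rule sum of 0, 20 without gamma delta marker cells, and 8 to 33 without 1 mouse. Ikzf2 there turned to 0.0156 (-0.41 in the reported fit) with at least 20 cells. Against 12, OT2 over OT1 gave 42 with no filter, 6 with DESeq2, 92 with at least 20 cells, 50 with a host term, 6 at a CD4 threshold of 6.6, 7 at a CD8A threshold of 5.8, 31 with a rule sum of 0, 7 without gamma delta marker cells, and 4 to 34 without 1 mouse. Antibodies gave 3 with DESeq2 and 0 otherwise. Against 19, the CD24 split gave 2 with DESeq2, 0 with no replicate block, 9 at a CD4 threshold of 6.6, 0 at a CD8A threshold of 5.8, 0 with a rule sum of 0, and 4 to 17 without 1 mouse; Tgfbr2 turned to 0.0520 (-0.33 in the reported fit) with a rule sum of 0, and at least 20 cells could not be fitted. Without a filter the median over all genes moved by 0.13, -0.20 and 0.23 in the first 3 comparisons. Thinned interferon shares were 30.4, 55.2, 23.1, 27.3 and 54.5% (OT2 NegSelected, OT2 PosSelected, OT1 NegSelected, OT1 PosSelected, OT1 NoSelection). The cause of these moves was not tested. The share of CD4 SP cells stayed inside its interval under all 6 other gates. With 1 mouse per receptor and host and 7 to 182 members each, low genes such as Zbtb7b did not pass the count filter against CD4+CD8A+ cells.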

Other observations

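Over all cells, Xist was at 507, 365 and 483 CPM in OT2 mice (NegSelected, PosSelected, NoSelection), against 0.783, 2.15 and 4.82 CPM in OT1 mice. Summed UMIs of 4 Y-linked genes were 0 to 2 per mouse. All mice were labelled female.

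In the OT2 NoSelection mouse the 7 CD4 SP cells had 27898 antibody CPM of CD73, against 2894 to 9038 antibody CPM in the other 5 mice, and 16032 of FR4. Igfbp4 UMIs lay in 4 of the 7 cells (51 UMIs). These values have no replicate, and 1 of the 7 cells held all 10 gamma delta marker UMIs.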
